A study of Homo sapiens with 12 samples.

Results

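The expression of 10 genes of the TGF-beta and BMP pathways was examined in 624Mel cells, an established human melanoma line. The genes were listed by name, as ligands, SMADs and output genes of these pathways. They were TGFB1, TGFB2, INHBA, SMAD3, SMAD7, BAMBI, TGFBI, ID1, ID2 and ID3, which are 10 of the 40173 gene IDs in the deposited table. All 10 were found under their symbols, and 8 of them reached a mean of 2 TPM (a transcript level scaled for transcript length and library size) in at least 1 condition and were tested with 12773 gene IDs in all. TGFB2 and INHBA stayed under 2 TPM in every condition and were not part of that test.

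RNA was sequenced from 12 libraries in 4 conditions of 3. Cells received a control siRNA (siCTRL) or an siRNA against MITF (siMITF), the melanocyte lineage transcription factor, and were then left without IFNγ or given IFNγ at 5 ng/mL for 24 h. The conditions are called siCTRL, siCTRL + IFNγ, siMITF and siMITF + IFNγ, and the question was how loss of MITF, which makes melanoma cells less differentiated, alters what IFNγ does to gene expression. All libraries came from 1 cell line and every siMITF library from 1 transient siRNA knockdown, so that other lines or siRNAs are not represented.

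TGF-beta and activin ligands bind pairs of serine/threonine kinase receptors that phosphorylate SMAD2 and SMAD3, while BMP ligands act through SMAD1, SMAD5 and SMAD9. Both branches need SMAD4 and are restrained by SMAD6, SMAD7 and the decoy receptor BAMBI. The ID genes are direct targets of the BMP branch and encode helix-loop-helix proteins that cannot bind DNA and that hold E proteins away from it. In melanoma, TGF-beta signalling and low MITF are both known features of less differentiated, invasive cells.

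MITF was listed at 187 to 229 TPM in siCTRL, 158 to 246 in siCTRL + IFNγ, 36.0 to 49.7 in siMITF and 37.5 to 55.1 in siMITF + IFNγ, so that each siMITF library was below each siCTRL library. The summed level of 6 melanocyte markers (MLANA, PMEL, TYR, DCT, SOX10 and S100B) was 5825 to 6861 TPM in siCTRL and 1635 to 1858 TPM in siMITF. PMEL made up most of it (means of 4827 and 1078 TPM), SOX10 had means of 263 and 226 TPM, and S100B went the other way, from 81.8 to 167 TPM. The summed level of 5 fibroblast markers was 5.33 to 6.61 TPM in siCTRL, 3.33 to 3.93 in siCTRL + IFNγ, 9.31 to 11.03 in siMITF and 5.12 to 6.46 in siMITF + IFNγ, with 3 of the 5, the collagen genes COL1A2 and COL3A1 among them, under 1 TPM in every library. For 5 leukocyte markers the sums were 2.99 to 3.19, 1.96 to 2.31, 4.62 to 5.55 and 3.93 to 4.35 TPM in the same order. LYZ was the only one of these to reach 1 TPM, and CD3E was listed at 0 in all 12 libraries. Every keratinocyte and endothelial marker was under 1 TPM in every library. Correlations between libraries over genes ran from 0.978 to 0.998, no pair of libraries held identical values, and the share of TPM in mitochondrial genes ran from 7.42% to 16.9%.

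The promoters of 4 members are shown because they hold, or lack, short DNA words tied to MITF, to SMADs or to IFNγ signalling. Windows from 250 bases before to 50 bases after the transcription start were read from RefSeq (GRCh38.p14), where all 10 members matched, with 16 windows in all. They were searched on both strands for CACGTG (the E-box that MITF binds), CATGTG (the M-box core), GGCGCC (a GC-rich element that SMADs of the BMP branch bind), GTCTAGAC (the SMAD palindrome) and TTCNNNGAA (the GAS element of IFNγ signalling). None of these words is part of another. In the lines that follow, the bases before the start are given 5′ to 3′ on the strand of the gene, and capitals mark a match. Bases annotated as exons of protein-coding genes are left out, so the BAMBI line ends 11 bases and the ID1 line 6 bases short of the RefSeq start. The stretches are TGFB2 at chr1:218345086-218345335 on the plus strand, BAMBI at chr10:28677271-28677509 on the plus strand, ID3 at chr1:23559502-23559751 on the minus strand and ID1 at chr20:31605039-31605282 on the plus strand. ID1 is shown as a member without a match, for comparison with ID3.
TGFB2: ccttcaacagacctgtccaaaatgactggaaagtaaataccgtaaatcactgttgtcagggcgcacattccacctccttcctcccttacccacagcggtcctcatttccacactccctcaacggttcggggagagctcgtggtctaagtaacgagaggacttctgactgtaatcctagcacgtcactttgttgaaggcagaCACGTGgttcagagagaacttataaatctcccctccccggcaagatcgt
BAMBI: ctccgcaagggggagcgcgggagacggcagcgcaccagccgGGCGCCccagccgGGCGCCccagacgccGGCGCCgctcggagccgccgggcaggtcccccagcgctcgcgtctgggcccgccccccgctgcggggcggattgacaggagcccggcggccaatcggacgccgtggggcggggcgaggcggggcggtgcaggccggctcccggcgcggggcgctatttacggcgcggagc
ID3: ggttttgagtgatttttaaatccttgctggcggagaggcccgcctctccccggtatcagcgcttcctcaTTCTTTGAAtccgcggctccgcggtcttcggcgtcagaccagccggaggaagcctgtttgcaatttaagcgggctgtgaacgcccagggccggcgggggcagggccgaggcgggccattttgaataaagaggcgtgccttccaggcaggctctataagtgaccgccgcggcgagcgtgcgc
ID1: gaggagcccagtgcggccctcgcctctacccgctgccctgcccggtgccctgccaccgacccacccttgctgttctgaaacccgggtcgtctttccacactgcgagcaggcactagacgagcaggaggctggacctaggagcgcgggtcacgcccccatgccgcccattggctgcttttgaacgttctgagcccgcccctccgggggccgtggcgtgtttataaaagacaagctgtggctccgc

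The E-box of TGFB2 began 49 bases before the start, the GAS word of ID3 181 bases before, and the GC-rich words of BAMBI 209, 196 and 181 bases before, counted from the RefSeq start. Among the other members, 1 of the 5 SMAD3 windows held an E-box 173 bases before its start and the GC-rich word 136 and 106 bases before, another SMAD3 window held a GAS word 69 bases before, TGFBI held the GC-rich word 111 bases before, and INHBA held the M-box core 41 bases after the start. TGFB1, SMAD7, ID1 and ID2 held none of these words in their windows. Of all 35116 RefSeq windows of the same length, 7.26% held CACGTG, 11.1% CATGTG, 19.2% GGCGCC, 0.202% GTCTAGAC and 7.66% TTCNNNGAA. These are matches of letters and say nothing of whether a factor was bound.

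In siMITF cells the ligand TGFB1, the feedback inhibitor SMAD7 and the output genes TGFBI and ID1 were all higher than in siCTRL cells, both without and with IFNγ, while TGFB2 was lower. IFNγ moved ID3 and ID1 in opposite directions, with ID3 higher and ID1 lower, while ID2 passed in no comparison. In siMITF cells IFNγ also raised BAMBI and lowered TGFBI. The ID1 call in siCTRL cells and the TGFBI call were lost under some alternatives. The plot of member levels shows all 12 libraries. In bulk RNA, a lower level per cell and fewer cells of a kind cannot be told apart.

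**Figure D1:**
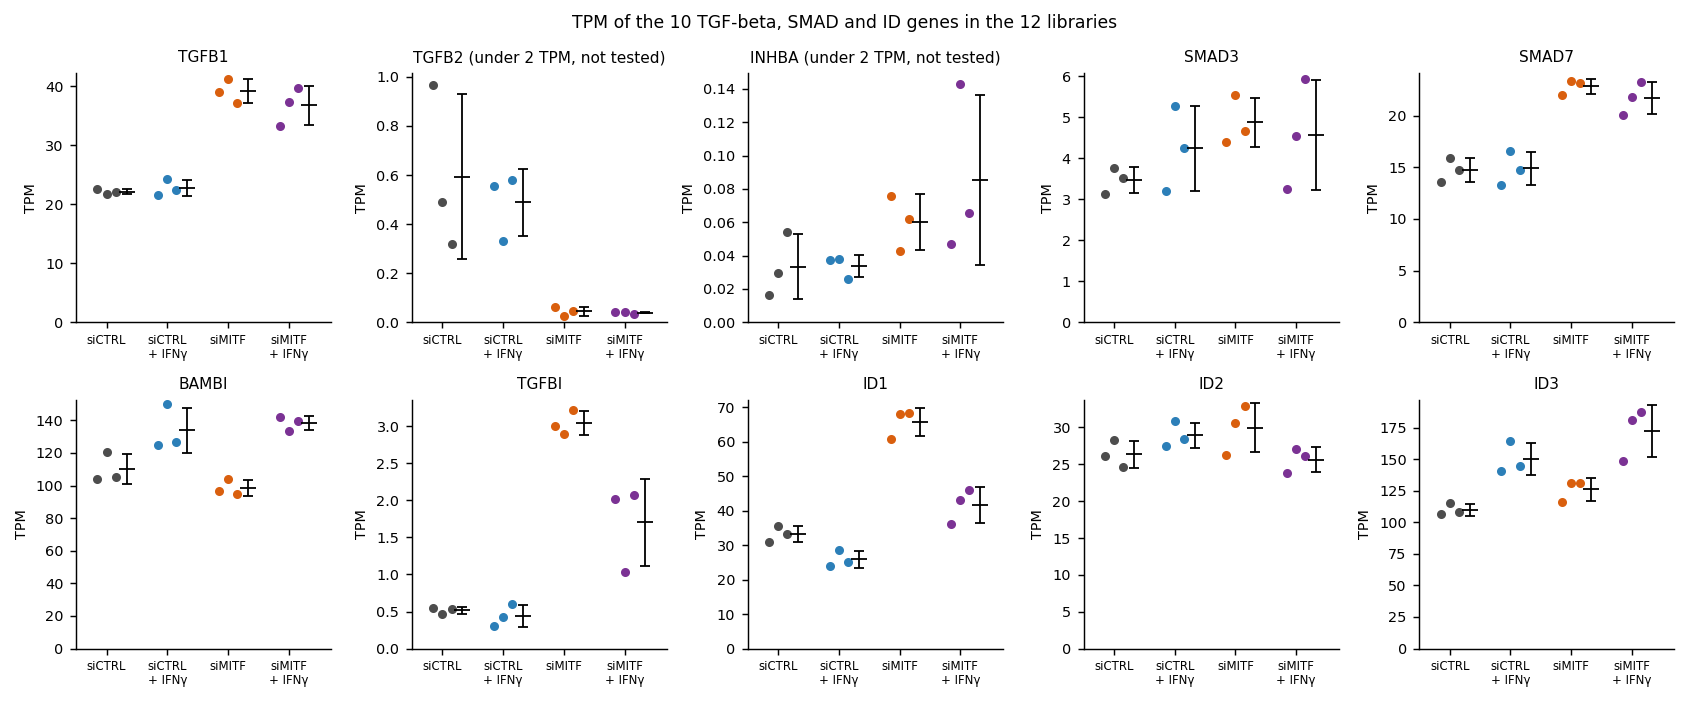
Level of each of the 10 members in TPM (linear axis from 0) in siCTRL, siCTRL + IFNγ, siMITF and siMITF + IFNγ. Each point is 1 library, and the bars are the mean ± SD of 3 libraries. TGFB1, SMAD7, TGFBI and ID1 lie higher and TGFB2 lower in both siMITF conditions, and ID3 lies higher and ID1 lower with IFNγ for each siRNA.

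TGFB1 (ENSG00000105329, chromosome 19, 41301587 to 41353922 on the minus strand, GRCh38) encodes the TGF-beta ligand found in most tissues. Its level was 22.5, 21.7 and 22.1 TPM in the siCTRL libraries, 21.6, 24.3 and 22.3 in siCTRL + IFNγ, 39.1, 41.2 and 37.2 in siMITF, and 33.2, 37.3 and 39.8 in siMITF + IFNγ. Every siMITF library was thus above every siCTRL library, whether IFNγ was present or not. The difference between siMITF and siCTRL on the log2(TPM + 1) scale was 0.80 without IFNγ (SE 0.0836, 95% CI 0.62 to 0.98, limma adjusted p = 1.13e-05) and 0.67 with IFNγ (adjusted p = 5.68e-05). IFNγ gave a difference of 0.04 in siCTRL cells (adjusted p = 0.820) and of -0.09 in siMITF cells (adjusted p = 0.477). An exon of TGFB1 overlaps HNRNPUL1 on the opposite strand, and the library kit does not keep strand, so reads from the overlap cannot be assigned. HNRNPUL1 was listed at mean levels of 142, 131, 165 and 129 TPM in the same order of conditions.

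TGFB2 (ENSG00000092969, chromosome 1, 218345336 to 218444619 on the plus strand) encodes another ligand of the family and went the other way at a far lower level. It was listed at 0.968, 0.491 and 0.318 TPM in siCTRL, 0.556, 0.333 and 0.579 in siCTRL + IFNγ, 0.0632, 0.0246 and 0.0448 in siMITF, and 0.0410, 0.0419 and 0.0355 in siMITF + IFNγ. All 6 siMITF libraries lay under all 6 siCTRL libraries. The ratio of mean levels, siCTRL over siMITF, was 13.4 without and 12.4 with IFNγ. The mean difference between the siRNAs within the IFNγ arms was -3.34 in log2(TPM + 0.01), and siMITF was lower in 6 of 6 same-numbered pairs. It is given as a description, since an exact permutation test added after seeing groups that do not overlap returns its smallest p. For IFNγ the difference was -0.12, with siRNA arms kept apart (exact permutation p = 0.705).

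INHBA (ENSG00000122641, chromosome 7, 41667168 to 41705834 on the minus strand), the subunit of activin A, was near 0 throughout. Its levels were 0.0161, 0.0298 and 0.0544 TPM in siCTRL, 0.0373, 0.0379 and 0.0260 in siCTRL + IFNγ, 0.0760, 0.0427 and 0.0620 in siMITF, and 0.0469, 0.143 and 0.0655 in siMITF + IFNγ. The siMITF libraries were above the siCTRL libraries with IFNγ and overlapped them without it. The siMITF difference was 0.88 in log2(TPM + 0.01). An exact two-sided permutation test added after seeing the data gave p = 0.02 (0.04 after Benjamini-Hochberg adjustment over 4 such tests) with libraries exchanged freely within the IFNγ arms. Since the data prompted this test, its p is given as a description. In 6 of 6 same-numbered pairs siMITF was higher. With exchange within these pairs alone, the exact permutation p was 0.031, the smallest that 6 pairs allow, and 0.063 after adjustment. With the p at its floor before adjustment, the paired test cannot decide whether the difference holds. The IFNγ difference was 0.22 (exact permutation p = 0.485, adjusted p = 0.647). A level this low rests on few reads, and the number of reads is unknown in a TPM table.

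SMAD3 (ENSG00000166949, chromosome 15, 67063763 to 67195173 on the plus strand) encodes the receptor-activated SMAD of the TGF-beta branch. Its level was 3.12, 3.76 and 3.52 TPM in siCTRL, 3.20, 5.27 and 4.25 in siCTRL + IFNγ, 4.41, 5.56 and 4.67 in siMITF, and 3.25, 4.54 and 5.94 in siMITF + IFNγ. Without IFNγ the siMITF libraries were above the siCTRL libraries, and with IFNγ they overlapped. The siMITF difference without IFNγ was 0.39 on the log2(TPM + 1) scale (SE 0.180, 95% CI 0.00 to 0.79) and did not pass (limma adjusted p = 0.113). With the replicate number as a block it passed (adjusted p = 0.0248). None of the other SMAD3 comparisons passed, with log2 differences of -0.31 to 0.29.

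SMAD7 (ENSG00000101665, chromosome 18, 48919853 to 48950965 on the minus strand), the inhibitory SMAD that TGF-beta itself induces, was listed at 13.5, 15.9 and 14.7 TPM in siCTRL and 13.3, 16.6 and 14.8 in siCTRL + IFNγ. It was at 22.0, 23.3 and 23.2 TPM in siMITF and at 20.1, 21.8 and 23.3 in siMITF + IFNγ, so that the siRNA groups did not overlap in either IFNγ arm. The siMITF difference was 0.60 without IFNγ (SE 0.0966, 95% CI 0.39 to 0.81, limma adjusted p = 0.000378) and 0.52 with IFNγ (adjusted p = 0.00123). The IFNγ differences were 0.01 in siCTRL and -0.07 in siMITF cells, with adjusted p of 0.954 and 0.638.

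BAMBI (ENSG00000095739, chromosome 10, 28677510 to 28682932 on the plus strand) encodes the membrane decoy receptor that lacks a kinase domain. Its level was 104, 121 and 105 TPM in siCTRL, 125, 150 and 127 in siCTRL + IFNγ, 96.6, 104 and 94.6 in siMITF, and 142, 133 and 140 in siMITF + IFNγ. The IFNγ libraries were above the untreated libraries of the same siRNA without overlap. In siMITF cells BAMBI rose with IFNγ by 0.49 (SE 0.0858, 95% CI 0.30 to 0.67, limma adjusted p = 0.00155). In siCTRL cells the IFNγ difference was 0.28 (95% CI 0.09 to 0.46, adjusted p = 0.0532), which passed with the replicate block (adjusted p = 0.0104). The siMITF differences of -0.16 without and 0.05 with IFNγ did not pass (adjusted p = 0.178 and 0.692). The former passed as lower with quantile normalization, median centring and rescaling without mitochondrial genes (limma adjusted p down to 0.0392).

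TGFBI (ENSG00000120708, chromosome 5, 136028988 to 136063818 on the plus strand) encodes a secreted matrix protein named for its induction by TGF-beta. It was listed at 0.551, 0.464 and 0.538 TPM in siCTRL, 0.305, 0.420 and 0.600 in siCTRL + IFNγ, 3.01, 2.90 and 3.22 in siMITF, and 2.02, 1.03 and 2.07 in siMITF + IFNγ. All 6 siMITF libraries were above all 6 siCTRL libraries, and the siMITF + IFNγ libraries lay between. The gene reached 2 TPM only in siMITF cells without IFNγ, so a gene as low in siMITF would not have been tested. The ratio of mean TPM between siMITF and siCTRL was 5.88 without and 3.86 with IFNγ. On the log2(TPM + 1) scale, which understates folds at this level, the differences were 1.41 (SE 0.152, 95% CI 1.08 to 1.74, limma adjusted p = 1.42e-05) and 0.89 (adjusted p = 0.000669). IFNγ lowered TGFBI by a log2 difference of -0.60 in siMITF cells (95% CI -0.93 to -0.27, adjusted p = 0.0146), a call lost without the third siMITF library (adjusted p = 0.0540) and with only those conditions in the fit (adjusted p = 0.0516). In siCTRL cells the IFNγ difference was -0.08 (adjusted p = 0.798). The fibroblast and leukocyte marker sums given above were also higher in siMITF and lower with IFNγ. They rest mostly on LUM, PDGFRA and LYZ, in a culture of a single melanoma line. Not every marker followed the sums, and PTPRC and COL1A2, both low, were higher with IFNγ in siMITF cells. Any link of these markers to the TGFBI and ID1 differences was not tested.

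ID1 (ENSG00000125968, chromosome 20, 31605283 to 31606515 on the plus strand) was at 30.8, 35.7 and 33.2 TPM in siCTRL, 23.9, 28.5 and 25.2 in siCTRL + IFNγ, 60.9, 67.9 and 68.3 in siMITF, and 36.0, 43.1 and 46.1 in siMITF + IFNγ. The siMITF libraries were above the siCTRL libraries and the IFNγ libraries below the untreated ones, with no overlap in any of the 4 comparisons. The mean TPM was 1.98 times higher in siMITF than in siCTRL without IFNγ and 1.61 times higher with it. The log2 differences were 0.96 (SE 0.104, 95% CI 0.74 to 1.19, limma adjusted p = 1.48e-05) and 0.66 (adjusted p = 0.000339). IFNγ lowered ID1 by a log2 difference of -0.65 in siMITF cells (95% CI -0.87 to -0.42, adjusted p = 0.000812) and of -0.35 in siCTRL cells (adjusted p = 0.0454). The siCTRL call is near the threshold and was lost in 12 of 22 alternatives, with adjusted p up to 0.169.

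ID2 (ENSG00000115738, chromosome 2, 8678845 to 8684461 on the plus strand) passed in no comparison. It was at 26.1, 28.3 and 24.7 TPM in siCTRL, 27.5, 30.8 and 28.5 in siCTRL + IFNγ, 26.3, 30.7 and 32.9 in siMITF, and 23.8, 27.1 and 26.1 in siMITF + IFNγ. The groups overlapped except between the siRNAs with IFNγ, where the siMITF libraries were the lower ones. The siMITF differences were 0.18 without and -0.17 with IFNγ (limma adjusted p = 0.187 and 0.209). The IFNγ differences were 0.13 in siCTRL (adjusted p = 0.440) and -0.21 in siMITF cells (adjusted p = 0.142), and the latter passed with the replicate block (adjusted p = 0.0443).

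ID3 (ENSG00000117318, chromosome 1, 23557926 to 23559501 on the minus strand) was the most abundant member beside BAMBI. Its level was 107, 116 and 108 TPM in siCTRL, 141, 165 and 144 in siCTRL + IFNγ, 116, 131 and 131 in siMITF, and 149, 181 and 187 in siMITF + IFNγ. Each IFNγ library was above each untreated library of the same siRNA. IFNγ raised ID3 by 0.44 in siCTRL cells (SE 0.0965, 95% CI 0.23 to 0.65, limma adjusted p = 0.00924) and by 0.44 in siMITF cells (95% CI 0.23 to 0.65, adjusted p = 0.00644). The siMITF differences of 0.19 without and 0.19 with IFNγ did not pass (adjusted p = 0.143 and 0.147) but passed with the replicate block (adjusted p = 0.0260 and 0.0273). The table lists the same values under another gene ID, ENSG00000283060, so how reads were shared between these entries is uncertain.

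The siMITF comparison without IFNγ thus called 4 of the 8 tested members, all higher (TGFB1, SMAD7, TGFBI and ID1), against 34.8% of all tested genes called in either direction and 21.0% called higher. The libraries did not overlap for 7 of the 8, all but ID2 and with BAMBI lower, against 55.0% of all tested genes. TGFBI entered the test only through its level in siMITF cells, so its call here is tied to the filter, and without it 3 of 7 members passed. It was also the 1 member with a difference of at least 2-fold on the fitted scale, a size that 6.17% of all tested genes reached, and nothing is read from that. The median difference was 0.50 over the 8 members, 0.39 without TGFBI and 0.06 over all tested genes. With IFNγ, TGFB1, SMAD7, TGFBI and ID1 again passed as higher, 4 of 8, against 33.1% of all genes in either direction and 18.4% higher, and 5 of 8 did not overlap, against 38.3%. None of the 8 reached 2-fold on the fitted scale, against 5.74% of all. The median was 0.36, or 0.19 with 3 of 7 passing when TGFBI is left out, against 0.03 over all genes. These comparisons use different libraries.

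IFNγ called 2 of 8 members in siCTRL cells, ID3 higher and ID1 lower, against 12.9% of all tested genes, of which 6.80% were higher and 6.14% lower. The libraries of 3 of 8 did not overlap, against 29.7%. In siMITF cells it called 4 of 8, BAMBI and ID3 higher and TGFBI and ID1 lower, against 20.2% of all, of which 7.99% were higher and 12.2% lower. The libraries of 4 of 8 did not overlap, against 40.5%. No member reached 2-fold on the fitted scale with IFNγ in siCTRL cells, against 2.61% of all, or in siMITF cells, against 2.98%. The medians over the members were 0.08 in siCTRL and -0.10 in siMITF cells, and over all genes -0.07 and -0.10.

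siMITF + IFNγ against siCTRL called 6 of 8 members, all higher, against 44.5% of all tested genes in either direction and 21.1% higher, and 6 of 8 did not overlap, against 53.1%. None reached 2-fold on the fitted scale, against 8.81% of all. The log2 differences were 0.71 for TGFB1, 0.53 for SMAD7, 0.33 for BAMBI, 0.81 for TGFBI, 0.32 for ID1 and 0.64 for ID3. ID1 was called with an adjusted p of 0.0269, which 6 of 22 alternatives brought above the threshold (up to 0.107), and quantile normalization took TGFBI to 0.38 (adjusted p = 0.103). SMAD3 (0.29) and ID2 (-0.04) did not pass.

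The interaction asks whether the IFNγ difference in siMITF cells departed from that in siCTRL cells. No member passed it in limma (0 of 8, against 0.947% of all tested genes, 0.705% upward and 0.243% downward), and 2 of 8 had an unadjusted p under 0.05, TGFBI and ID2. The interaction was -0.52 for TGFBI (95% CI -0.99 to -0.06, adjusted p = 0.551) and -0.34 for ID2 (95% CI -0.64 to -0.05, adjusted p = 0.509). For ID1 it was -0.30 (95% CI -0.62 to 0.02) and for BAMBI 0.21 (adjusted p = 0.799). ID3 had an interval of -0.30 to 0.30 around 0, so a difference of that size between the IFNγ responses was within its error. That ID1 fell with IFNγ by more in siMITF than in siCTRL cells is therefore not shown.

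**Figure D2:**
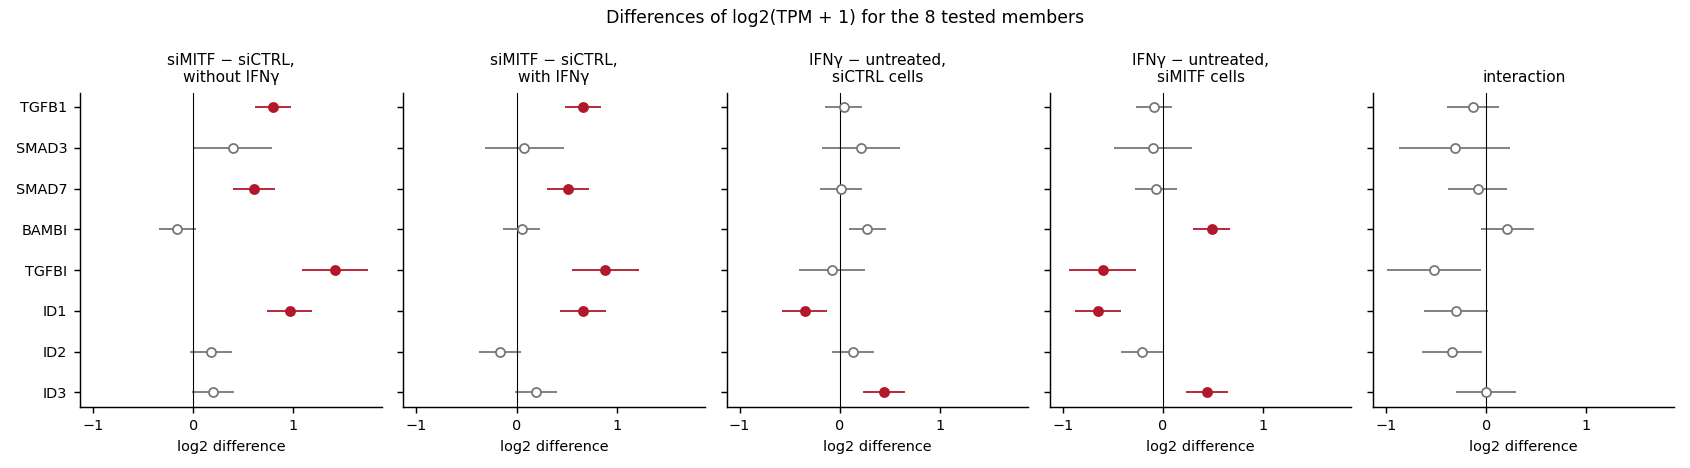
Fitted differences of log2(TPM + 1) for the 8 tested members in the siMITF comparisons without and with IFNγ, the IFNγ comparisons in siCTRL and siMITF cells, and the interaction (x axis, log2 units). Points are estimates, bars are 95% confidence intervals, and filled red points passed limma at an adjusted p under 0.05. TGFB1, SMAD7, TGFBI and ID1 are filled on the right in both siMITF panels, ID3 and ID1 lie on opposite sides of 0 in both IFNγ panels, and no interaction is filled.

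The other genes of these pathways were read from a list of 113 genes in 7 groups, of which 70 reached 2 TPM in a condition. The list was chosen with earlier results of these data known, so its shares beside those of all genes are a description. Without IFNγ, siMITF called 35 of the 70, 23 higher and 12 lower, which is 50% against the 34.8% of all genes, with a median of 0.17. With IFNγ it called 36, 25 higher and 11 lower, or 51.4% against 33.1%. BMP6 and AMH, called as higher in both, entered the test only through siMITF cells. IFNγ called 15 in siCTRL cells (9 higher, 6 lower), or 21.4% against 12.9%, and 17 in siMITF cells (10 higher, 7 lower), or 24.3% against 20.2%. CHRD, called as higher in both, entered the test only through the IFNγ conditions. With the replicate block both IFNγ counts became 31 (44.3%), while the share of all tested genes rose to 25.7% in siCTRL and 35.7% in siMITF cells. The plot of pathway differences shows the 20 genes that reached 2-fold in a comparison or passed the interaction.

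**Figure D3:**
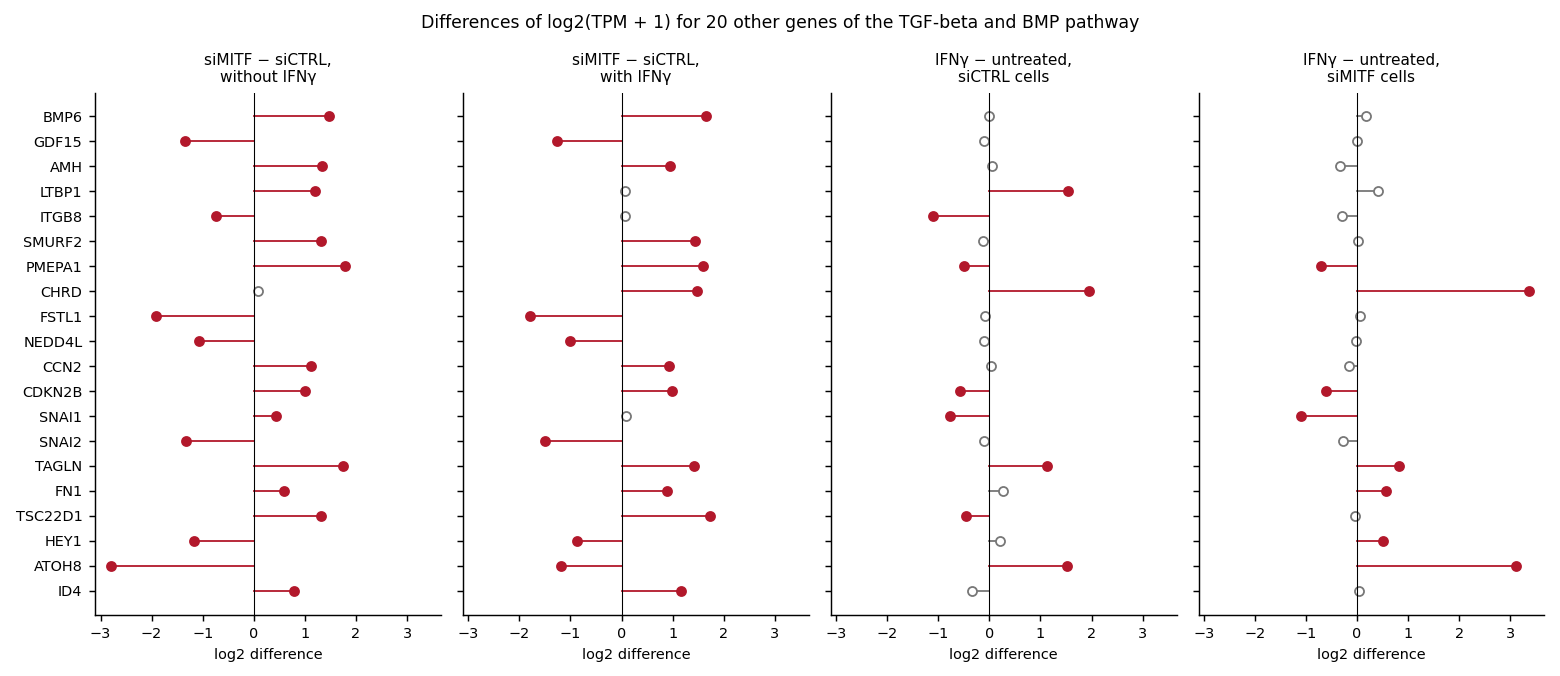
Fitted differences of log2(TPM + 1) for the 20 pathway genes named by rule, in the siMITF comparisons without and with IFNγ and the IFNγ comparisons in siCTRL and siMITF cells (x axis, log2 units). Filled red points passed limma at an adjusted p under 0.05, and each line runs from 0 to the estimate. PMEPA1, SMURF2, TAGLN and TSC22D1 lie on the right and FSTL1, SNAI2 and ATOH8 on the left in both siMITF panels.

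Of the other ligands, 4 of the 6 tested passed in siMITF without IFNγ, 3 higher and 1 lower, against 34.8% of all tested genes. BMP6, a BMP ligand known from iron regulation, went from a mean of 0.427 TPM in siCTRL to 2.95 in siMITF, a log2 difference of 1.47, and AMH, the anti-Müllerian hormone, from 1.39 to 5.03 TPM (1.33). Neither reached 2 TPM in siCTRL cells, with or without IFNγ. Both entered the test only through siMITF cells, so their calls and the count of ligands are tied to the filter. GDF15, a stress-induced distant member of the family, fell from 405 to 159 TPM (-1.34). Of 7 tested latency and activation genes, 3 passed in siMITF with IFNγ, against 33.1% of all tested genes. Without IFNγ 6 passed in siMITF, against 34.8%, 4 higher and 2 lower. The lower ones were NRROS (-0.81), which holds latent TGF-beta on cells, and ITGB8 (-0.75), an integrin subunit that activates it. LTBP1, which tethers latent TGF-beta to the matrix, was at 4.18 TPM in siCTRL and rose to 10.9 with siMITF (1.20) and to 14.4 with IFNγ (1.54), and siMITF + IFNγ was at 14.8 TPM.

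Of 13 tested receptors and co-receptors, 2 passed in siMITF without IFNγ, against 34.8% of all tested genes. These were BMPR1A, a type I BMP receptor (0.37, limma adjusted p = 0.0239), and the co-receptor ENG (0.31). BMPR2, the type II BMP receptor, passed for IFNγ in siCTRL (0.63, adjusted p = 0.00113) and siMITF cells (0.56, adjusted p = 0.00191). Of 8 other SMADs and partners, 2 passed in siMITF without IFNγ, against the same 34.8%. The inhibitory SMAD6 was higher (0.62, limma adjusted p = 0.00125) and the BMP-branch SMAD9 lower (-0.44). SMAD6 and SMAD7, both inhibitory SMADs, were thus higher in siMITF cells.

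Of 18 tested inhibitors and feedback genes, 9 passed in siMITF without IFNγ, 6 higher and 3 lower, against 34.8% of all tested genes. PMEPA1 (ENSG00000124225), a membrane protein that takes SMADs away from the receptor and that TGF-beta induces, rose from a mean of 10.2 to 37.7 TPM (1.79, limma adjusted p = 4.08e-07). With IFNγ its mean was 6.90 in siCTRL and 23.0 in siMITF cells, and the IFNγ difference of -0.70 in siMITF cells passed (adjusted p = 0.00213). SMURF2, a ubiquitin ligase for SMADs and receptors, went from 11.4 to 29.8 TPM (1.31). NEDD4L, another such ligase, fell from 78.6 to 36.9 TPM (-1.07), and the follistatin-like FSTL1 from 65.5 to 16.7 TPM (-1.92).

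Of 15 other output genes tested, 12 passed in siMITF without IFNγ, 7 higher and 5 lower, against 34.8% of all tested genes. The matrix-associated CCN2 rose from 14.003 to 31.8 TPM (1.13), the actin-binding TAGLN from 0.734 to 4.80 (1.74), the cell-cycle inhibitor CDKN2B from 9.23 to 19.5 (1.01) and TSC22D1 from 62.0 to 157 (1.32). Lower were the transcription factors SNAI2, from 41.5 to 16.0 TPM (-1.32), and HEY1, from 113 to 49.3 TPM (-1.18). ATOH8, described below, fell from a mean of 12.7 to 0.979 TPM (-2.80), and BHLHE40 (-0.82) and JUNB (-0.52) were lower too. FN1, fibronectin, was at 120 TPM in siCTRL and 181 in siMITF (0.59), and reached 270 in siMITF + IFNγ. SNAI1 was higher in siMITF (0.43) and fell with IFNγ in siCTRL (-0.77) and siMITF cells (-1.11). ID4, the ID gene outside the 10, went from 9.08 to 16.3 TPM with siMITF (0.78), and IFNγ differences of -0.33 in siCTRL (adjusted p = 0.0539) and 0.04 in siMITF cells did not pass. The former passed with the replicate block (adjusted p = 0.0176). Of the 3 E proteins that ID proteins hold, TCF12 passed as higher with IFNγ in siCTRL (0.55) and siMITF cells (0.60).

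The interaction was passed by 3 of the 70, or 4.29% against 0.947% of all genes, and 12 had an unadjusted p under 0.05. ATOH8 (ENSG00000168874), a helix-loop-helix factor known as a BMP target, was at 12.6, 12.8 and 12.6 TPM in siCTRL, 35.7, 41.3 and 37.2 in siCTRL + IFNγ, 0.692, 0.970 and 1.27 in siMITF, and 14.6, 17.02 and 16.7 in siMITF + IFNγ. It was thus lowest in siMITF cells and higher with IFNγ for both siRNAs, with no overlap. The log2 difference with IFNγ was 1.51 in siCTRL and 3.12 in siMITF cells, an interaction of 1.60 (SE 0.160, limma adjusted p = 0.000331). Since siMITF started from a level near 1 TPM, the pseudocount enters this size, and the interaction stayed under the threshold with pseudocounts of 0.1 and 0.5.

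CHRD (ENSG00000090539), the secreted BMP antagonist chordin, was at 0.832, 0.775 and 0.542 TPM in siCTRL, 5.21, 6.28 and 5.53 in siCTRL + IFNγ, 0.706, 0.818 and 0.890 in siMITF, and 14.7, 17.04 and 21.4 in siMITF + IFNγ. The siRNA groups overlapped without IFNγ and were apart with it. CHRD reached 2 TPM only with IFNγ, so its IFNγ calls and its place in the interaction count are tied to the filter. The interaction was 1.40 (SE 0.189, limma adjusted p = 0.00272). ITGB8 had means of 9.85, 4.05, 5.46 and 4.24 TPM and an interaction of 0.81 (adjusted p = 0.0420), which 14 of 21 alternatives brought above the threshold (up to 0.133). LTBP1 had an interaction of -1.14 (adjusted p = 0.0614), which passed with the replicate block (adjusted p = 0.00238).

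**Figure D4:**
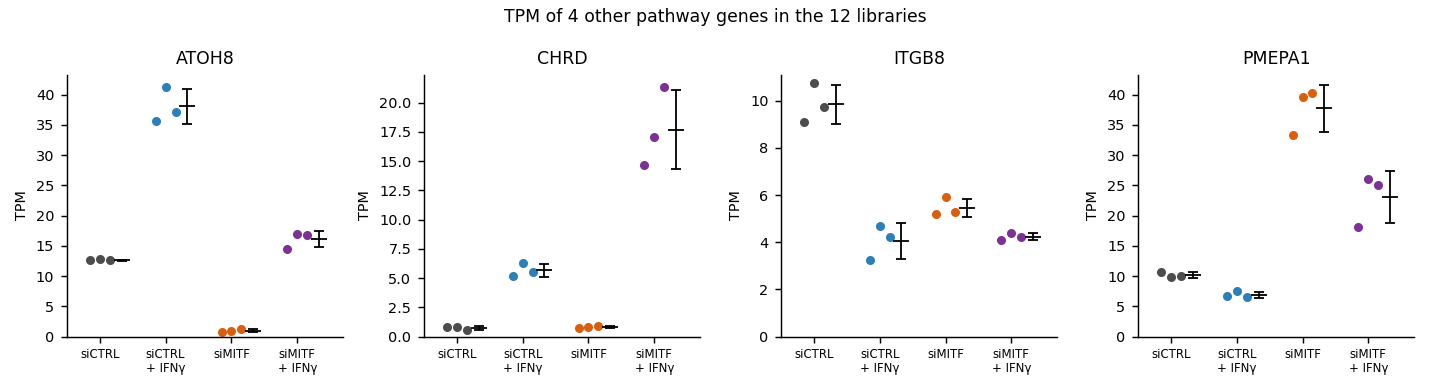
Level of ATOH8, CHRD, ITGB8 and PMEPA1 in TPM (linear axis from 0) in siCTRL, siCTRL + IFNγ, siMITF and siMITF + IFNγ. Each point is 1 library, and the bars are the mean ± SD of 3 libraries. ATOH8 falls to a mean of 0.979 TPM in siMITF and is at 16.1 with IFNγ, CHRD is highest in siMITF + IFNγ at 17.7, and PMEPA1 is highest in siMITF at 37.7.

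As a description, among tested IDs with a symbol, the genes whose log2(TPM + 1) followed each tested member most closely were named by Pearson's r over the 12 libraries. The 816 tested IDs without a symbol were left out. Among them was ENSG00000283060, which holds the same values as ID3. The libraries share conditions, so such values are high for any pair of genes that differ between conditions in the same way. HCN2 (0.996) and GNAI2 (0.992) were nearest to TGFB1, MOCOS (0.991) and DIRAS1 (0.990) to SMAD7, and DOK1 (0.993) and ARL6IP4 (0.988) to ID1. RRAGA (0.977) and SEPHS2 (0.972) were nearest to BAMBI, TAPBP (0.981) and ENSG00000268173 (0.978) to ID3, ENSG00000270728 (0.987) and GPC4 (0.984) to TGFBI, and CERCAM (0.964) and RNF123 (0.957) to SMAD3. For ID2 the nearest were GALK1 (0.877) and UBOX5 (0.806). No member was among the nearest genes of another.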

How the data were processed

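The 12 bulk RNA libraries of 624Mel cells, 3 for each of 4 conditions, were made with a TruSeq RNA kit. The authors trimmed reads with Trimmomatic 0.39 and quantified transcripts with kallisto against an Ensembl GRCh38 transcriptome, and deposited one TPM value for every gene in each library. The tool that summed transcripts to genes and the Ensembl release are not given in the sources used here. TPM keeps no read counts, so depth is unknown and no counting interval is given. The library sums were 975336 to 982632 TPM. The authors ran DESeq2 1.26.0 on counts, which were not used here.

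Symbols and positions came from GENCODE 44 and left 816 tested IDs without a symbol. limma 3.58.1 (R 4.3.3) was fitted to log2(TPM + 1) of the 12773 gene IDs averaging 2 TPM or more in any condition, over all 12 libraries with 1 coefficient per condition, trended empirical Bayes moderation and two-sided tests adjusted by Benjamini-Hochberg over all tested genes. A gene passed at an adjusted p under 0.05. The interaction was the IFNγ difference in siMITF minus that in siCTRL cells. An exact permutation test of 3 against 3 libraries cannot go below 0.1, so single genes rest on the pooled fit. Tables used Python 3.11.15, pandas 2.3.3 and numpy 2.4.6, and figures matplotlib 3.10.9.

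The study describes independent biological replicates, and the labels do not say whether same-numbered libraries share a day. After subtracting condition means, the 18 same-numbered pairs had correlations of 0.102 to 0.625 (median 0.279), and differently numbered pairs a median of -0.196. When same-numbered pairs are alike, the subtraction itself pushes the other pairs below 0, so the latter value adds no separate evidence. Same-numbered libraries thus varied together, and the replicate number was added as a block in an alternative fit. Calls come from the fit without the block unless an alternative is named.

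The members, gene lists and tests were chosen with earlier results of these data known. Named were the 10 members, MITF and pathway genes that passed with at least a 2-fold difference or passed the interaction. The 2 genes with a symbol nearest to each tested member were named too. NRROS, BMPR1A, ENG, BMPR2, SMAD6, SMAD9, TCF12, BHLHE40 and JUNB were named after their values were seen. Alternatives were pseudocounts of 0.1 and 0.5, no filter, a 5 TPM minimum over the 12 libraries, quantile normalization, median centring, moderation without a trend, only the compared conditions, the block, and each library left out. The permutation tests of TGFB2 and INHBA, with free and with paired exchange, and a rescaling without mitochondrial genes were chosen after seeing the data.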

Additional observations from a re-analysis of the deposited data

Results flagged for a closer look

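In 3 pathway genes outside the 10 members, the difference between the IFNγ responses of siMITF and siCTRL cells passed the interaction test in limma. The interaction was 1.60 for ATOH8, 1.40 for CHRD and 0.81 for ITGB8 on the log2(TPM + 1) scale, with adjusted p of 0.000331, 0.00272 and 0.0420. ATOH8 and CHRD rose with IFNγ by more in siMITF cells and passed under all 21 alternatives. CHRD entered the test only through the IFNγ conditions, where it was high, so its call is tied to the filter. The ITGB8 call was lost in 14 of 21 (adjusted p up to 0.133). Its IFNγ difference was -1.11 in siCTRL cells and -0.30 in siMITF cells, and the latter did not pass (adjusted p = 0.0891, or 0.0234 with the replicate block). The causes were not tested.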

How the results depend on the processing

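Of the 1036 values of members under alternatives, 973 kept their direction and side of the threshold, 23 newly passed, 21 no longer passed and 19 changed sign. In siCTRL cells the IFNγ count of members went from 2 to 1 with no filter, with moderation without a trend and with only the compared conditions. The share of all tested genes went from 12.9% to 5.17%, 12.4% and 8.44% in the same order. Leaving out 1 library at a time gave 4 to 4 members for siMITF without IFNγ, 4 to 5 with IFNγ, 1 to 3 for IFNγ in siCTRL, 3 to 4 in siMITF, 5 to 7 for the combination and 0 to 0 for the interaction. The share of all tested genes ran from 27.1% to 38.7% for siMITF without IFNγ and from 25.8% to 33.7% with IFNγ. For IFNγ it was 8.28% to 16.0% in siCTRL and 12.9% to 24.5% in siMITF cells. For the combination it was 37.4% to 48.0%, and for the interaction 0.572% to 0.955%. The siCTRL count of 1 came without siCTRL library 1 or 3, siCTRL + IFNγ library 3, siMITF library 1, 2 or 3 or siMITF + IFNγ library 2. With the replicate block the counts were 6, 5, 3, 5, 6 and 0 in that order of comparisons. The shares of all tested genes under the block were 47.7%, 46.3%, 25.7%, 35.7%, 56.9% and 2.16%. The calls that the block changed are given with SMAD3, BAMBI, ID2 and ID3. The block changed no other call among the members.

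Signs changed near 0. SMAD3 in siMITF with IFNγ was -0.0011 with quantile normalization, and -0.0926 to 0.26 with 1 library left out. ID2 in the combination was 0.0050 without mitochondrial genes and -0.0820 to 0.0135 with 1 library left out. The ID3 interaction was 0.017 with quantile normalization, 0.021 with median centring, 0.023 without mitochondrial genes, and -0.0640 to 0.10 with 1 library left out. With 1 library left out, IFNγ differences ran from -0.0074 to 0.0740 for TGFB1 and -0.0622 to 0.0857 for SMAD7 in siCTRL cells, and from -0.27 to 0.0813 for SMAD3 in siMITF cells. The cause was not tested.

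With at least 5 TPM required, SMAD3 and TGFBI were not tested. For the pathway list the IFNγ counts in siCTRL cells, 15 in the fit described, were 25 with quantile normalization or median centring, 24 without mitochondrial genes and 9 without siCTRL + IFNγ library 3. The share of all tested genes called moved too, from 12.9% to 22.1%, 22.0%, 18.4% and 8.28% in that order. In siMITF cells the count of 17 became 32 with quantile normalization and 31 with median centring, and the share of all genes went from 20.2% to 31.3% and 29.8%. The list's interaction count of 3 became 6 with quantile normalization and 5 with median centring, the block or no mitochondrial genes, while the share of all genes went from 0.947% to 2.30%, 2.06%, 2.16% and 1.72%.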
